A study of Homo sapiens with 54 samples.

Results

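Cells of MDA-MB-231, a human triple-negative breast cancer line, were exposed for 48 h to Compound Kushen Injection (CKI) from which trifolirhizin had been removed, a mixture called N-Tri, and their transcriptome was compared with that of untreated cells of the same time point and batch. The 3 N-Tri libraries and the 3 untreated libraries were taken by their labels, and are 6 of the 54 libraries of the series. The other groups used here are whole CKI at 2 mg/ml and 3 mixtures that each lack 1 other component, macrozamin (N-Mac), N-methylcytisine (N-Nme) or oxymatrine (N-Omt), with 3 libraries each. All of them were made from MDA-MB-231 cells at 48 h in batch 2, in medium with 10% fetal bovine serum, and the mixtures were given at the equivalent of 2 mg/ml. The series describes the 3 libraries of a group as biological replicates. The mixtures were fractionated and reconstituted and whole CKI was not, so in N-Tri against CKI the loss of trifolirhizin and the reconstitution cannot be told apart. The labels name no vehicle for the untreated cells of the RNA experiment.

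CKI is a clinical extract of the roots of Kushen (Sophora flavescens) and Baituling (Heterosmilax chinensis), rich in quinolizidine alkaloids such as matrine and oxymatrine. Trifolirhizin is not an alkaloid but a pterocarpan glucoside, the glucose conjugate of maackiain. Plant phenolics and alkaloids of this kind meet a set of well known sensor pathways in human cells. The aryl hydrocarbon receptor (AHR) and NRF2 switch on detoxifying enzymes, the unfolded protein response and ATF4 answer stress in the endoplasmic reticulum and amino acid shortage, NF-kappa B and AP-1 drive secreted cytokines, and E2F, the DREAM complex and FOXM1 govern the genes of S phase and mitosis.

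Total counts were 17673537, 24494266 and 21065993 in the N-Tri replicates 1 to 3 and 25453736, 23373761 and 24268695 in the untreated replicates. N-Tri replicate 1 had the lowest total of the 18 libraries of batch 2 used here. Levels are given as CPM, the count scaled to library size after TMM normalization, and 1 CPM was between 18.0 and 25.1 counts in these 6 libraries. Markers of the line (VIM, CD44, KRT8, KRT18, EGFR, AXL, CAV1 and MSN) summed to between 6233 and 6756 CPM in untreated cells and between 3198 and 3265 CPM with N-Tri, with none at 0. The 5 luminal breast markers summed to 39.7 to 42.2 CPM in untreated and 25.0 to 26.9 CPM in N-Tri libraries, the 7 fibroblast markers to 34.2 to 44.9 and 20.0 to 20.6 CPM, and the 5 blood cell markers to 4.84 to 6.51 and 1.44 to 1.83 CPM, with 2 of these 5 genes at 0 in every library of either group. The part of these shifts in the results below was not tested. Across log-CPM of 15115 genes, the Pearson correlation of an N-Tri library was 0.994 to 0.995 with the other N-Tri libraries and 0.948 to 0.961 with untreated libraries. Untreated libraries were less alike than N-Tri libraries over all genes. The chi-square of their counts per degree of freedom was 4.44 to 13.1, highest for replicates 2 and 3, against 1.99 to 2.73 between N-Tri replicates.

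The promoters of genes that the results below turn on are shown as 250 bases before the RefSeq transcription start on GRCh38.p14, read 5′ to 3′ on the gene's strand. They were chosen because CXCL8 rose among the most against untreated cells and CXCL8 and CXCL2 against CKI, CDC20 and PLK1 were among the largest falls against untreated cells, and CYP1A1, the sentinel target of AHR, was among the genes that fell most against CKI. Capitals mark a kappa B type motif (GGAATTTCC) and an AP-1 motif (TGACTCA) in CXCL8 (chr4:73740319-73740568, plus strand), and the kappa B type motif in CXCL2 (chr4:74099196-74099445, minus strand), which held no TGACTCA. In CDC20 (chr1:43358731-43358980, plus strand) and PLK1 (chr16:23678639-23678888, plus strand) they mark TTTGAA, the core of the cell cycle genes homology region (CHR), and CCAAT, and TTCAAA in CDC20 is TTTGAA read on the other strand. In CYP1A1 (chr15:74725529-74725778, minus strand) they mark GCGTG, the core of the xenobiotic response element. Both strands were searched, and a match is a description of these letters only.
CXCL8: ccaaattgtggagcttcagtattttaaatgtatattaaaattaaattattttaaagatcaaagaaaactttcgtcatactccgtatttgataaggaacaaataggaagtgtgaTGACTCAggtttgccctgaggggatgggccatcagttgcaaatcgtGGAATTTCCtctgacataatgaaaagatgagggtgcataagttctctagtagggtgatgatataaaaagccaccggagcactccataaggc
CXCL2: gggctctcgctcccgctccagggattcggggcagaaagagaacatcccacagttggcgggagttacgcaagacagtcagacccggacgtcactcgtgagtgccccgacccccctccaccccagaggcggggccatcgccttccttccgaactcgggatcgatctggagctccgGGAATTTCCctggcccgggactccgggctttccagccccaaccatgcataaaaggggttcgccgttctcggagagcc
CDC20: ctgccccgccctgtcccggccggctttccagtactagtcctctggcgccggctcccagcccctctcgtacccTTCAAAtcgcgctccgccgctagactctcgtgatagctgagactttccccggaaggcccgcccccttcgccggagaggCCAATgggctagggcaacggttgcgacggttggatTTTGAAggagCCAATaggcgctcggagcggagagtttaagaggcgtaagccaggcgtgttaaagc
PLK1: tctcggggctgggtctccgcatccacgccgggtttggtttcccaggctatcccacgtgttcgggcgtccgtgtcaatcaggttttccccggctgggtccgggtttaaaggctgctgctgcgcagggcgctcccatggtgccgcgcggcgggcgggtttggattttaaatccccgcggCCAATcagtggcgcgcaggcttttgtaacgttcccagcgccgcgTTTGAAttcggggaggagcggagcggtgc
CYP1A1: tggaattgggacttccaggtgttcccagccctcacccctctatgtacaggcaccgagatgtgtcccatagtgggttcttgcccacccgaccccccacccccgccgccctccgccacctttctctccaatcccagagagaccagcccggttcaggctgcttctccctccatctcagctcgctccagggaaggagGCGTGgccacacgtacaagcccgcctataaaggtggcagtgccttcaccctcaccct

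Of all 27305 genes with a promoter in that table, 0.428% held GGAATTTCC in these 250 bases, 4.16% TGACTCA, 13.6% TTTGAA, 33.0% CCAAT and 31.9% GCGTG. Among the cytokine genes listed for this work, 15 had an entry, and 5 of them held GGAATTTCC (CXCL1, CXCL2, CXCL3, CXCL8 and CXCL10) and 3 TGACTCA (CXCL8, IL1A and IL11). Among the 34 listed genes of mitosis, 27 had an entry, and TTTGAA stood in 13 and CCAAT in 21 of those promoters. Among the 34 listed genes of DNA replication, 30 had an entry, and TTTGAA stood in 1 and CCAAT in 17. GCGTG stood in 3 of 6 promoters of the AHR list, 3 of 15 of cytokines, 13 of 27 of mitosis and 16 of 30 of DNA replication. The CHR letters of PLK1 began 29 bases before the start and those of CDC20 65 and 178 bases before it.

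After 48 h of N-Tri, 10729 of the 14447 genes tested (74.3%) were differentially expressed (DE) at an adjusted p-value under 0.05 by edgeR's quasi-likelihood test, with 5360 higher (37.1%) and 5369 lower (37.2%) in N-Tri libraries. Most of these differences were under 2-fold. With a change of at least 2-fold required as well, 2511 genes were DE (17.4%), 1160 higher (8.03%) and 1351 lower (9.35%). For 5059 genes (35.0%) the 95% confidence interval of the log2 fold change lay wholly within ±0.5. The median log2 fold change of all genes tested was 0.01, and the extremes were -8.50 and 5.69. Across 14003 genes with a transcript in GENCODE the log2 fold change had a Spearman correlation of -0.30 with GC content, with a median of 0.30 in the lowest and -0.27 in the highest of 4 equal GC bins. The part of GC content in the results below was not tested.

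Cytokine and inflammatory genes led the genes that rose. IL24, a cytokine of the IL-10 family, was at 16.5, 11.2 and 23.7 CPM in the untreated replicates 1 to 3 and at 566, 554 and 611 CPM in the N-Tri replicates. All 3 N-Tri libraries lay far above the untreated ones, and the log2 fold change was 5.10 ± 0.16 (SE, n = 3 per group, adjusted p = 7.00e-11). IL1A, an alarmin of the interleukin-1 family, went from 3.29, 1.74 and 3.84 CPM to 94.6, 89.1 and 97.5 CPM, a log2 fold change of 5.01 ± 0.13 (adjusted p = 1.41e-11). Its secreted relative IL1B was at 2.92, 2.76 and 3.37 CPM without and 69.9, 67.1 and 77.5 CPM with N-Tri, a log2 fold change of 4.60 ± 0.09 (adjusted p = 3.09e-12). In both interleukin-1 genes the groups were far apart and the replicates of N-Tri close together. CXCL8, the neutrophil chemokine whose promoter is shown above, rose from 86.8, 69.7 and 116 CPM to 1203, 1230.3 and 1397 CPM, a log2 fold change of 3.84 ± 0.14 (adjusted p = 1.89e-10). PTGS2, the inducible cyclooxygenase, rose from 4.77, 3.83 and 5.70 CPM to 53.6, 55.4 and 55.1 CPM, a log2 fold change of 3.55 ± 0.10 (adjusted p = 1.67e-11).

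The other genes among the 12 with the largest rise had various roles. AKR1C1, an aldo-keto reductase that reduces steroids and aldehydes, went from 1.27, 1.56 and 1.90 CPM to 51.0, 46.8 and 46.5 CPM, a log2 fold change of 4.96 ± 0.11 (adjusted p = 4.63e-12). Reads of AKR1C1 may be shared with its near-identical neighbour AKR1C2, so the split between these genes is uncertain. MMP1, an interstitial collagenase, rose from 24.4, 20.3 and 28.2 CPM to 373, 359 and 382 CPM, with no overlap between the groups and a log2 fold change of 3.96 ± 0.08 (adjusted p = 4.63e-12). TNFSF15, a ligand of the TNF superfamily, had a log2 fold change of 4.11. The long noncoding RNAs LUCAT1 and UCA1 had log2 fold changes of 3.34 and 3.26. For SUN3, a SUN domain protein of the nuclear envelope, and ATP6V0D2, a subunit of the vacuolar proton pump, they were 3.10 and 2.93.

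By the same rule, a mean of at least 10 CPM and no overlap, genes of the cell cycle led those that fell. KIF20A, a kinesin needed for cytokinesis, was at 98.1, 107 and 85.0 CPM in untreated and 5.22, 3.55 and 3.49 CPM in N-Tri libraries, a log2 fold change of -4.56 ± 0.12 (SE, n = 3 per group, adjusted p = 1.96e-11). PLK1, the kinase that drives mitotic entry, fell from 116, 116 and 108 CPM to 7.44, 7.73 and 6.41 CPM, a log2 fold change of -3.94 ± 0.07 (adjusted p = 1.65e-12). The highest N-Tri library was far below the lowest untreated library for both. UHRF1, which reads hemimethylated DNA at replication forks, fell from 152, 162 and 129 CPM to 12.0, 12.4 and 10.6 CPM (log2 fold change -3.63), and CDC20, the activator of the anaphase-promoting complex, from 219, 217 and 214 CPM to 21.2, 23.2 and 19.6 CPM (log2 fold change -3.31). LMNB1, a protein of the nuclear lamina, fell from 128, 139.8 and 115 CPM to 10.6, 12.8 and 10.7 CPM, a log2 fold change of -3.45. The mitotic genes PIMREG, CDCA3 and BIRC5 (survivin) had log2 fold changes of -3.62, -3.35 and -3.32.

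Some of the 12 largest falls were not cell cycle genes by common annotation. RARRES3, a phospholipase and acyltransferase, was at 77.0, 111 and 54.2 CPM in the untreated replicates and 6.61, 6.10 and 5.11 CPM with N-Tri, a log2 fold change of -3.73 ± 0.24 (adjusted p = 2.44e-08). The untreated replicates were wide apart, with replicate 2 highest and replicate 3 lowest, and all of them were above N-Tri. STMN3, a stathmin that destabilizes microtubules, FAM111B, a protease, and RCSD1, which binds the actin capping protein, had log2 fold changes of -3.60, -3.40 and -3.37. For RCSD1 the untreated replicates were at 23.8, 32.9 and 18.9 CPM, so that here too replicate 2 was highest and replicate 3 lowest.

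**Figure D1:**
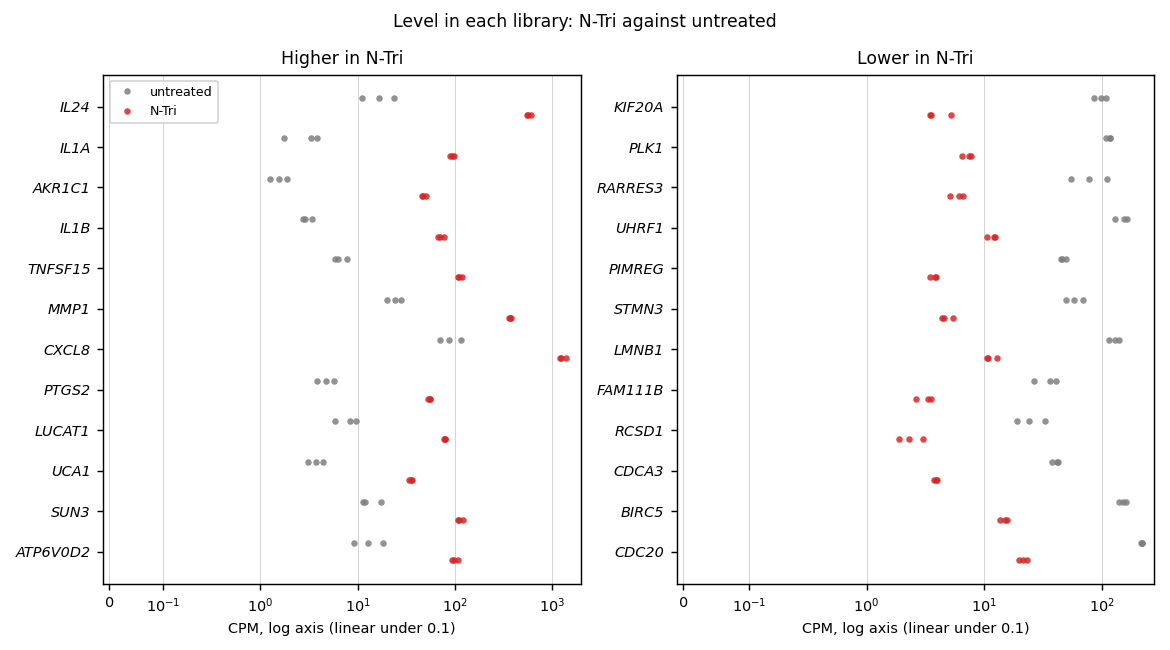
CPM on a log axis of the 12 genes with the largest rise (left) and the 12 with the largest fall (right) in N-Tri against untreated cells, with 1 point per library (3 grey untreated, 3 red N-Tri). For every gene shown the groups do not overlap, which the choice of the genes required; IL24 lies at 11.2 to 23.7 CPM without and 554 to 611 CPM with N-Tri.

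Of the 23 genes listed as secreted cytokines and chemokines, 19 were expressed enough to be tested, and 16 of these were DE higher and 2 lower with N-Tri, where 37.1% of all genes tested were higher. Their median log2 fold change was 1.30, and 14 rose and 1 fell by at least 2-fold. CXCL2, a chemokine for neutrophils, was at 16.3, 13.9 and 21.6 CPM in untreated and 79.3, 80.8 and 95.2 CPM in N-Tri libraries, a log2 fold change of 2.33 ± 0.12 (adjusted p = 2.81e-09). The N-Tri libraries were all well above the untreated ones. CCL20, a chemokine for CCR6-bearing cells, had the log2 fold change 3.98 at low levels, 1.61, 1.87 and 2.70 CPM with N-Tri. IL6, a cytokine that signals through STAT3, and LIF, of the same family, had log2 fold changes of 1.22 and 1.04, CSF2, a growth factor for myeloid cells, of 1.49, and IL18 of 1.30. CX3CL1 and CCL5 were the 2 that fell, with -0.72 and -1.54. CSF1 was not DE (log2 fold change 0.00, 95% interval -0.12 to 0.12). CXCL10, CCL2, TNF and TSLP had too few counts for the test. Reads may be shared between CXCL1, CXCL2 and CXCL3, which are close paralogs.

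Interferon-stimulated genes moved the other way. All 25 listed genes were tested, 21 were DE lower (37.2% of all genes were) and 1 higher, with a median of -1.06 and 13 at least 2-fold lower. OAS3, a sensor of double-stranded RNA, fell from 45.5, 49.1 and 39.5 CPM to 8.05, 8.01 and 7.67 CPM, a log2 fold change of -2.47 ± 0.09 (adjusted p = 2.01e-10). Its relative OAS1 had a log2 fold change of -2.59, IFI44L of -2.41 and HERC6, an interferon-induced ubiquitin ligase, of -1.81. ISG15, the ubiquitin-like modifier, went from 169 ± 18.6 to 53.7 ± 1.34 CPM (mean ± SD, n = 3). The transcription factor STAT2 was the gene that rose, by 0.13, and IFI44 (-0.11) and ISG20 (0.11) were among those not DE.

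Every listed gene of mitosis and of DNA replication was DE lower with N-Tri, 34 of 34 in each list, beside 37.2% of all genes tested. The median log2 fold change was -2.26 for mitosis, with 32 genes at least 2-fold lower, and -1.74 for DNA replication, with 30. In a bulk sample fewer cells in a phase of the cycle and less RNA per cell cannot be told apart. The smallest falls were in BUB3 (-0.59), a checkpoint protein, and ECT2 (-0.85), an exchange factor of cytokinesis, in the mitosis list, and in GINS3 (-0.45) in the replication list. CCNB1, the mitotic cyclin B1, fell from 232, 252 and 217 CPM to 34.6, 35.9 and 29.6 CPM, a log2 fold change of -2.77, and its partner kinase CDK1 had -1.64. The aurora kinases AURKA and AURKB had log2 fold changes of -2.76 and -2.09, and TOP2A, the topoisomerase that untangles chromosomes, of -2.30.

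Within DNA replication, GINS2, a subunit of the replicative helicase, fell from 17.3, 18.2 and 15.7 CPM to 2.33, 2.63 and 1.91 CPM, a log2 fold change of -2.86 ± 0.13 (adjusted p = 8.26e-10). TYMS, the thymidylate synthase that supplies dTMP, fell from 85.2, 93.1 and 74.1 CPM to 12.6, 11.5 and 11.0 CPM, a log2 fold change of -2.82 ± 0.09 (adjusted p = 6.21e-11). The replicates of both groups lay close together for both genes. GINS4 and TK1, the thymidine kinase of S phase, had log2 fold changes of -2.34 and -2.27. The 6 subunits of the MCM2-7 helicase ranged from -2.23 for MCM3 to -1.66 for MCM7, and the sliding clamp PCNA was at -1.32.

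Of 19 tested regulators of G1, 13 were DE lower and 4 higher, with a median of -0.84, where 37.2% of all genes were lower and 37.1% higher. E2F2, an activator of S phase genes, fell to a very low level, from 7.68, 10.7 and 6.26 CPM to 0.167, 0.478 and 0.232 CPM, a log2 fold change of -4.67 ± 0.32 (adjusted p = 4.03e-08). CCNE2, a cyclin E, had a log2 fold change of -2.70, CDKN2C, the inhibitor p18, of -2.67, and CDC25A, the phosphatase that activates CDK2, of -1.74. CCND1, cyclin D1, fell from 729 ± 60.4 to 237 ± 2.01 CPM (mean ± SD, n = 3), a log2 fold change of -1.59. The inhibitor CDKN1A (p21) rose from 246, 215 and 274 CPM to 630.0, 615 and 664 CPM, a log2 fold change of 1.41 ± 0.07 (adjusted p = 2.38e-09). CCND2 rose by 1.50. RB1 (-0.09) and CDKN1B (-0.09) were not DE.

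All 6 tested genes of the AHR list were DE higher than in untreated cells (37.1% of all genes were), with a median log2 fold change of 1.25. CYP1A1, the cytochrome P450 that AHR induces most directly, was nearly silent in untreated cells, at 0.370, 0.669 and 0.821 CPM, and at 6.55, 4.86 and 5.25 CPM with N-Tri, a log2 fold change of 3.18 ± 0.24 (adjusted p = 7.88e-08). TIPARP, an ADP-ribosyltransferase that dampens AHR, went from 42.4, 42.8 and 47.3 CPM to 177, 182 and 185 CPM, a log2 fold change of 2.07 ± 0.05 (adjusted p = 9.11e-12). In both genes all N-Tri libraries were above all untreated libraries. CYP1B1, a P450 of the same family, had a log2 fold change of 1.58 and the AHR repressor AHRR of 0.91. The receptor AHR itself and its partner ARNT were at 0.37 and 0.51.

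Of the 23 NRF2 targets and partners, 17 were DE higher and 4 lower, with a median of 0.52, where 37.1% of all genes were higher and 37.2% lower. Besides AKR1C1 the largest rises were in AKR1C2 (3.05), AKR1B10 (2.19, at a mean of 1.53 CPM) and SLC7A11. SLC7A11, the cystine importer that feeds glutathione synthesis, went from 83.6, 58.8 and 126 CPM to 381, 383 and 369 CPM, a log2 fold change of 2.11 ± 0.18 (adjusted p = 3.27e-07). GCLC and GCLM, the subunits of the enzyme that makes glutathione's first bond, rose by 1.26 and 0.75, and TXNRD1, thioredoxin reductase, by 0.78. NQO1, a quinone reductase often used as an NRF2 marker, was not DE (log2 fold change -0.09, 95% interval -0.22 to 0.04). Among the 4 that fell were KEAP1, the repressor of NRF2, at -0.77, and PGD and TKT of the pentose phosphate pathway at -0.44 and -0.43.

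Of 21 chaperones and stress sensors of the endoplasmic reticulum, 15 were DE higher and 2 lower (median 0.49), where 37.1% of all genes were higher and 37.2% lower. HSPA5 (BiP), the main chaperone of that compartment, rose from 2821, 2173 and 4064 CPM to 6700.4, 6451 and 6156 CPM, a log2 fold change of 1.12 ± 0.16 (adjusted p = 2.88e-05). The untreated replicates were wide apart, with replicate 2 lowest and replicate 3 highest, and all were below N-Tri. CXCL8, CDKN1A and SLC7A11 above had the same order of untreated replicates, and RARRES3 and RCSD1 the reverse. The sensors ERN1 (IRE1) and EIF2AK3 (PERK) rose by 1.33 and 1.17, while CRELD2 and CALR (calreticulin) fell, with -1.33 and -0.69. Among the 20 genes of the ATF4 and CHOP branch, 16 were DE higher and 3 lower (median 0.73), beside the same shares of all genes. DDIT3 (CHOP) went from 55.8, 36.2 and 82.0 CPM to 154, 152 and 167 CPM, a log2 fold change of 1.47 ± 0.19 (adjusted p = 1.37e-05). The stress-induced factors ATF3 and CEBPB rose by 1.96 and 1.43, and PPP1R15A (GADD34), which reverses the block of translation, by 1.39. ATF5, SLC7A5 and SHMT2 fell, with -1.58, -0.94 and -0.43.

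Of 15 heat shock chaperones 7 were DE higher and 5 lower (median 0.10), near the 37.1% higher and 37.2% lower of all genes. HSPA9, the mitochondrial Hsp70, rose by 1.02, HSPA1A and HSPA1B, the near-identical inducible Hsp70 genes whose reads may be shared, by 0.85 and 0.79, and HSPB1, a small heat shock protein, fell by 1.42 on the log2 scale. Of 17 metal-handling genes 10 were DE higher and 5 lower (median 0.20), beside the same shares of all genes. MT1X, a zinc-binding metallothionein, rose from 49.7, 47.2 and 60.5 CPM to 176, 188 and 191 CPM, a log2 fold change of 1.85 ± 0.08 (adjusted p = 4.81e-10). FTH1 and FTL, the chains of the iron store ferritin, rose by 1.20 and 1.05. STEAP3, a ferrireductase, had a log2 fold change of -1.49 and MT1E of -0.65.

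Of 25 genes of cholesterol synthesis and SREBP2, 17 were DE lower and 3 higher (median -0.58, 3 at least 2-fold lower), where 37.1% of all genes were higher and 37.2% lower and 9.35% at least 2-fold lower. MVK, mevalonate kinase, fell from 57.6, 49.8 and 56.5 CPM to 14.9, 14.4 and 14.3 CPM, with no overlap between the groups and a log2 fold change of -1.88 ± 0.07 (adjusted p = 2.14e-10). PMVK, the next enzyme, had a log2 fold change of -1.13 and ACAT2 of -0.99. Among 21 targets and members of the liver X receptor and PPAR families, 6 were DE higher and 9 lower (median 0.05), shares near those of all genes. FASN, fatty acid synthase, fell from 1276 ± 135 to 275 ± 16.1 CPM (mean ± SD, n = 3), a log2 fold change of -2.18, and its regulator SREBF1 had -1.75. ANGPTL4, an inhibitor of lipoprotein lipase, and PLIN2, a lipid droplet protein, rose by 1.66 and 1.57.

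Among 28 genes of glycolysis and hypoxia, 13 were DE higher and 11 lower (median 0.09), near the 37.1% higher and 37.2% lower of all genes. PKM, pyruvate kinase, fell from 2767, 2854 and 2624 CPM to 999.6, 1006 and 958 CPM, a log2 fold change of -1.44, and ENO1, enolase, had -1.15. The hypoxia-responsive NDRG1 and P4HA1, a collagen hydroxylase, rose by 1.41 and 1.40. Of 21 genes of drug efflux and conjugation 7 were DE higher and 12 lower (median -0.18) beside the same shares, with the largest changes in the glutathione transferases GSTM1 (-1.51) and GSTM2 (-1.42), which are close paralogs, the carbonyl reductase CBR3 (-1.42) and the sulfotransferase SULT1A1 (-1.33). In the apoptosis list 12 of 27 were DE higher and 9 lower (median 0.03), near the shares of all genes, and 1 of them reached 2-fold. BIRC3, an inhibitor of apoptosis, went from 48.2, 55.3 and 45.2 CPM to 97.8, 97.9 and 95.4 CPM, a log2 fold change of 1.00. BBC3 (PUMA), which promotes cell death, and XIAP, which inhibits caspases, rose by 0.95 and 0.82, and BCL2L1 (BCL-xL) had a log2 fold change of -0.75.

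The study was concerned with migration and invasion, and actin genes were mostly lower with N-Tri. Of 30 genes of the actin cytoskeleton and SRF, 24 were DE lower and 3 higher (median -0.78, 9 at least 2-fold lower), where 37.2% of all genes were lower, 37.1% higher and 9.35% at least 2-fold lower. ACTB, beta-actin, fell from 5541, 5779.9 and 5086 CPM to 1849, 1834 and 1756 CPM, a log2 fold change of -1.56 ± 0.05 (adjusted p = 4.75e-11). ACTG1, the gamma isoform whose sequence is close to it, had -2.13, and the split of reads between them is uncertain. IQGAP3, a scaffold protein, had a log2 fold change of -2.46. CNN1, a calponin, rose by 1.77 but from 0.269 to 0.939 CPM only. Among 25 integrins and focal adhesion genes, 15 were DE lower and 9 higher (median -0.52), beside the same shares of all genes. CAV1, the caveolar scaffold, fell from 749, 821 and 718 CPM to 172, 171 and 168 CPM, a log2 fold change of -2.13 ± 0.05 (adjusted p = 8.66e-12). THBS1, thrombospondin-1, had -2.07 and ITGB8 -2.60, the latter at a mean of 0.678 CPM. ITGB3, the beta-3 integrin, rose from 11.7, 12.8 and 12.1 CPM to 40.3, 44.1 and 42.3 CPM, a log2 fold change of 1.82, and the laminin chain LAMB3 by 1.32.

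Of 23 tested genes of the matrix protease list 8 were DE higher and 11 lower (median -0.01). Of all genes 37.1% were higher and 37.2% lower. Besides proteases and their inhibitors this list holds hyaluronan synthases, hyaluronan-degrading proteins and CD44. MMP3, stromelysin-1, rose from 0.247, 0.0446 and 0.346 CPM to 2.61, 3.55 and 4.00 CPM, a log2 fold change of 3.99 at low levels. MMP2, gelatinase A, went the other way, from 2.14, 2.45 and 2.46 CPM to 0.111, 0.279 and 0.372 CPM, a log2 fold change of -3.10. CEMIP, which degrades hyaluronan, fell from 187, 204 and 184 CPM to 29.1, 33.9 and 33.4 CPM (-2.54), and TIMP3, an inhibitor of metalloproteinases, had -2.41. In the TGF-beta list 11 of 26 were DE higher and 10 lower (median 0.07), near the shares of all genes. BMP4, a ligand of the family, fell from 187, 224 and 151 CPM to 23.9, 24.6 and 25.0 CPM, a log2 fold change of -2.90 ± 0.12 (adjusted p = 4.66e-10). ID1, a direct target of BMP signals, fell from 28.8, 30.0 and 23.8 CPM to 5.83, 4.22 and 5.58 CPM, and its log2 fold change was -2.39. The ligand TGFB3 had -1.82 and the inhibitory SMAD6 -1.18.

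**Figure D2:**
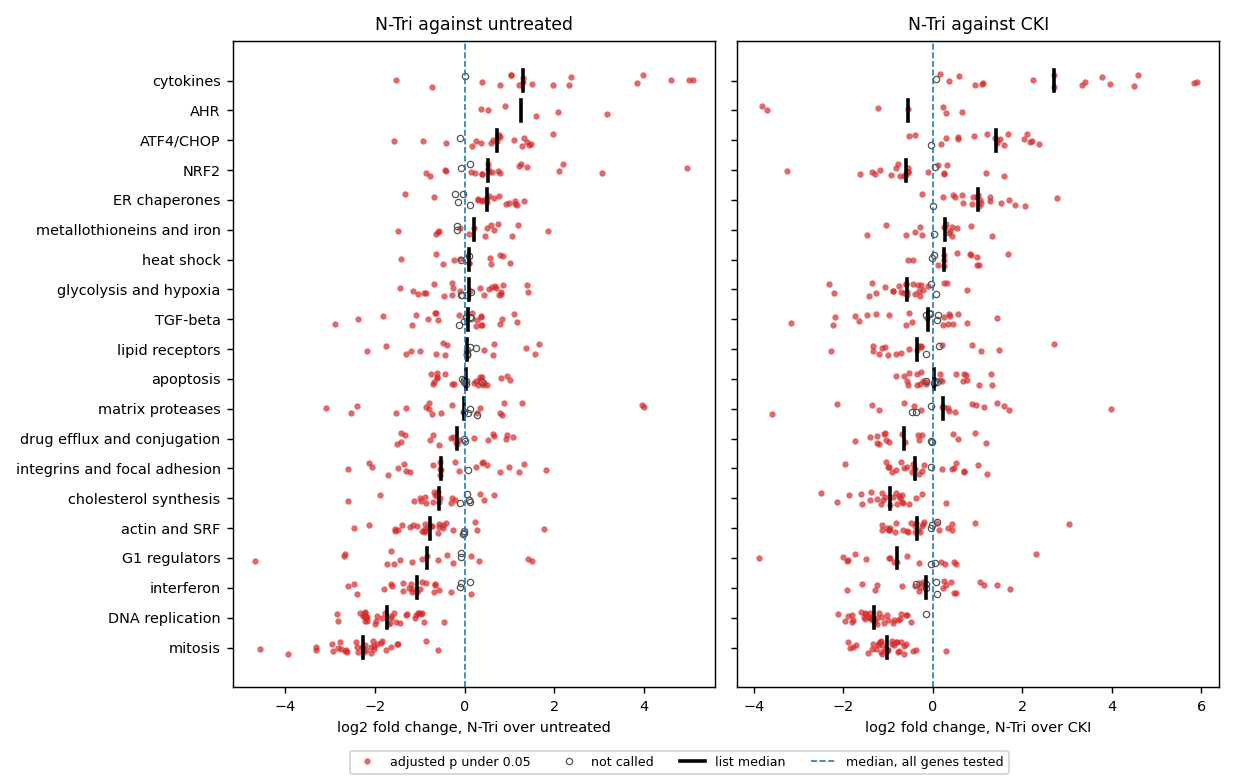
Log2 fold change of every tested member of 20 gene lists, with 1 point per gene, for N-Tri over untreated (left) and N-Tri over CKI (right). Filled red points are genes with an adjusted p-value under 0.05, open points are not DE, black bars are list medians and the dashed line is the median of all genes tested. Mitosis (-2.26) and DNA replication (-1.74) have the lowest medians against untreated cells, and cytokines the highest in both comparisons (1.30 and 2.71).

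N-Tri was then compared directly with whole CKI, a comparison that uses no untreated library. Of 14411 genes tested, 11104 were DE (77.1%), 5541 higher (38.4%) and 5563 lower (38.6%) with N-Tri, and with at least 2-fold required 964 were higher (6.69%) and 1277 lower (8.86%). The biological coefficient of variation was 0.0286, below the 0.0489 of the comparison with untreated cells. For 5542 genes (38.5%) the 95% interval lay within ±0.5. The log2 fold change had a Spearman correlation of -0.39 with GC content across 13966 genes, and its part in these differences was not tested. At least 2-fold differences were found in 2241 genes (15.6%) against CKI but in 31 (0.218%) against N-Nme. Differences from CKI should therefore not be read as particular to N-Tri.

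Genes averaging under 10 CPM, or with overlap between the groups, were left out of the ranking here too. Chemokines and IL24 led the genes that were higher than with CKI. CXCL8 was at 20.7, 23.3 and 20.5 CPM in the CKI replicates, where N-Tri had the 1203, 1230.3 and 1397 CPM given above, a log2 fold change of 5.92 ± 0.05 (SE, n = 3 per group, adjusted p = 4.16e-54). Its level with CKI was below that of every untreated library, and its level with N-Tri above all of them. CXCL2 was at 3.43, 3.71 and 4.24 CPM with CKI, a log2 fold change of 4.51 ± 0.08 (adjusted p = 5.60e-41). CXCL1 was at 1.02, 1.59 and 2.08 CPM against 20.8, 20.1 and 23.9 CPM with N-Tri, 3.79 ± 0.13 (adjusted p = 1.45e-29). IL24 (4.59) and PTGS2 (4.46) were also among the 8 largest rises. The others were KRT34, a hair keratin, at 4.45, SCG5, a chaperone of a prohormone convertase, at 4.11, and LCN2, a siderophore-binding lipocalin, at 3.72. In the cytokine list 17 of 18 tested genes were DE higher than with CKI and none lower, where 38.4% of all genes were higher, and the median was 2.71. IL11 was the member not DE (log2 fold change 0.06, 95% interval -0.03 to 0.15).

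With genes averaging under 10 CPM left out and no overlap allowed, CYP1A1 was among the 8 genes with the largest fall against CKI. It was at 73.8, 68.7 and 76.6 CPM with CKI and 6.55, 4.86 and 5.25 CPM with N-Tri, a log2 fold change of -3.71 ± 0.07 (adjusted p = 1.17e-39), so that N-Tri lay between untreated cells and CKI with no overlap on either side. In the AHR list 4 of 7 tested genes were DE lower and 3 higher (median -0.56), beside 38.6% lower and 38.4% higher of all genes. ALDH3A1, an aldehyde dehydrogenase at 3.20 CPM with CKI and 0.208 CPM with N-Tri, had a log2 fold change of -3.82. CYP1B1 had -1.22 and TIPARP 0.30. SPINK4, a protease inhibitor, had the largest fall of the 8 genes ranked in this way. It went from 30.4, 30.6 and 25.5 CPM with CKI to 0.888, 1.12 and 1.07 CPM, a log2 fold change of -4.76 ± 0.13 (adjusted p = 3.62e-34). With no gene left out, the lowest log2 fold change against CKI was -6.51. F2RL3, the thrombin receptor PAR4, was at 26.0, 27.9 and 26.8 CPM with CKI and 1.22, 0.877 and 0.883 CPM with N-Tri, -4.75 ± 0.12 on the log2 scale (adjusted p = 1.36e-34). RARRES2 (chemerin), BMP4, PLXNA1, a semaphorin receptor, SAA1, an acute phase protein, and ADAMTS15, a matrix protease, had log2 fold changes of -3.81, -3.17, -3.05, -2.84 and -2.82.

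**Figure D3:**
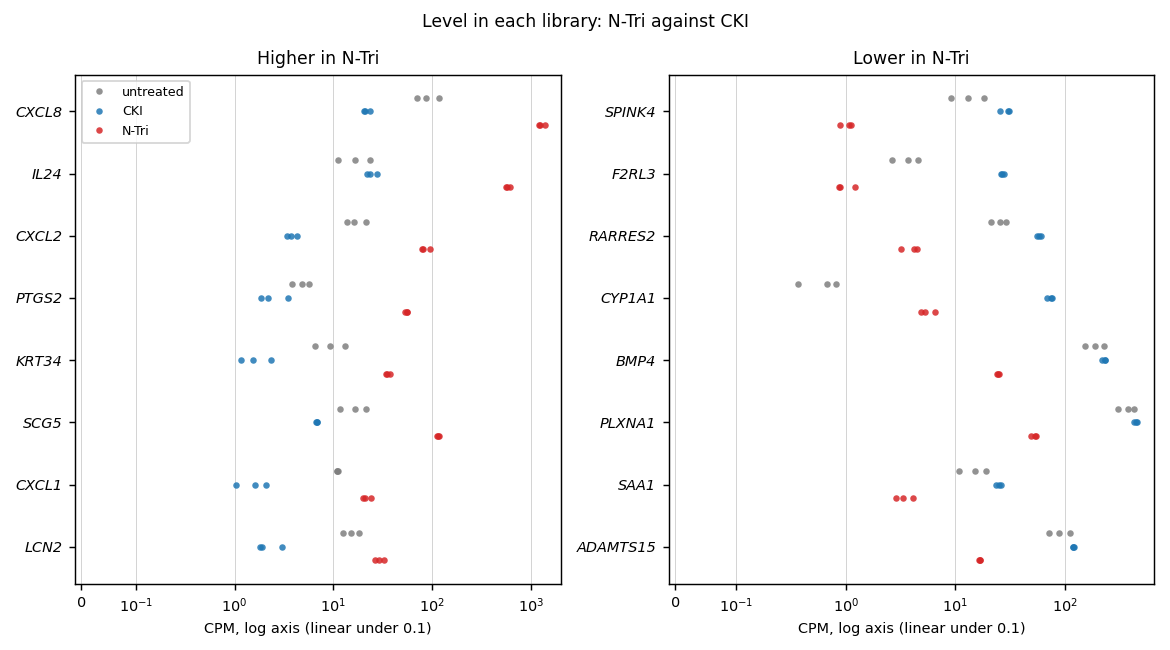
CPM on a log axis of the 8 genes with the largest rise (left) and the 8 with the largest fall (right) in N-Tri against CKI, with 1 point per library (grey untreated, blue CKI, red N-Tri, 3 each). Genes averaging under 10 CPM over the N-Tri and CKI libraries, or with overlap between them, were left out. CYP1A1 lies at 0.370 to 0.821 CPM untreated, 4.86 to 6.55 CPM with N-Tri and 68.7 to 76.6 CPM with CKI, while CXCL8 is lowest with CKI and highest with N-Tri.

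Chaperones of the endoplasmic reticulum were higher than with CKI in 19 of 21 genes and lower in 1 (median 1.00), and genes of ATF4 and CHOP in 17 of 20 and lower in 2 (median 1.41), where 38.4% of all genes were higher and 38.6% lower. HSPA5 was at 948, 961 and 937 CPM with CKI, below all untreated libraries, and N-Tri was 2.79 ± 0.03 above it on the log2 scale (adjusted p = 3.04e-50). HSP90B1, the Hsp90 of that compartment, had 2.06, DDIT3 2.38, SESN2, a stress-induced inhibitor of mTORC1, 2.21, ATF3 2.18 and NUPR1, a stress-induced chromatin protein, 2.10. NRF2 targets were DE lower in 16 of 23 and higher in 6 (median -0.60) beside the same shares, with AKR1B10 at -3.26 and NQO1 at -1.36, against SLC7A11 at 1.19 and AKR1C1 at 1.58. HMOX1, heme oxygenase-1, did not differ beyond the spread (log2 fold change 0.05, 95% interval -0.05 to 0.15). Of the 25 genes of cholesterol synthesis 24 were lower than with CKI and 1 higher (median -0.95), beside 38.6% and 38.4% of all genes. TM7SF2, a sterol reductase, went from 91.1 to 15.8 CPM (-2.50), and MVK had -2.14. ABCA1, the cholesterol exporter, was higher than with CKI by 2.71.

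Cell cycle genes were also lower with N-Tri than with CKI, 33 of 34 of the mitosis list (median -1.04) and 33 of 34 of the replication list (median -1.31), where 38.6% of all genes were lower. PLK1 was at 25.5, 23.5 and 23.9 CPM with CKI, between untreated and N-Tri cells, and N-Tri was at -1.73 ± 0.08 against it (adjusted p = 1.20e-23). BUB3 was the mitosis gene that was higher (0.29) and GINS3 the replication gene not DE (-0.15, 95% interval -0.34 to 0.04). Interferon-stimulated genes were DE higher in 10 and lower in 10 of 25 (median -0.15), near the 38.4% higher and 38.6% lower of all genes. The extremes were IFIT2 at 1.73 and IFI6 at -1.92. Genes of glycolysis and hypoxia were lower in 23 of 28 and higher in 3 (median -0.58), with the aldolase ALDOC at -2.33 and the carbonic anhydrase CA9 at -2.22. Of the matrix protease list 12 of 22 were higher and 7 lower (median 0.23), beside the same shares of all genes. MMP3 was at 3.98, CEMIP at 1.44, MMP2 at -3.59 and TIMP1 at -2.14.

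The lists not yet described against CKI stand beside 38.4% of all genes higher and 38.6% lower, and those of apoptosis and TGF-beta were near these shares. Actin and SRF genes were higher in 7 and lower in 20 of 30 (median -0.36), integrins and focal adhesion genes in 8 and 16 of 25 (-0.41) and TGF-beta genes in 9 and 12 of 26 (-0.10). G1 regulators were higher in 5 and lower in 12 of 19 (-0.80), with E2F2 at -3.88 and CCND2 at 2.32. Efflux and conjugation genes were higher in 4 and lower in 14 of 20 (-0.65), with the epoxide hydrolase EPHX1 at -1.74 and GSTO1 at 1.19. Heat shock genes were higher in 11 and lower in 2 of 15 (0.25), metal genes in 10 and 6 of 17 (0.28), lipid receptor genes in 5 and 14 of 21 (-0.35) and apoptosis genes in 11 and 12 of 27 (0.01). BBC3, XIAP and PMAIP1 (NOXA) of the apoptosis list were at least 2-fold higher, with 1.31, 1.29 and 1.03.

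Of the other mixtures that lack 1 component, N-Nme and N-Mac lay much closer to N-Tri than CKI did, and N-Omt lay between. The correlation of an N-Tri library across log-CPM was 0.991 to 0.994 with N-Nme, 0.989 to 0.991 with N-Mac and 0.975 to 0.978 with N-Omt, against 0.957 to 0.960 with CKI. In direct tests 2521 of 14249 genes (17.7%) were DE between N-Tri and N-Nme, 6091 of 14356 (42.4%) against N-Mac and 9545 of 14435 (66.1%) against N-Omt. At least 2-fold differences were found in 31 genes against N-Nme (0.218%, 0.154% higher and 0.0632% lower), 126 against N-Mac (0.878%, 0.216% higher and 0.662% lower) and 1054 against N-Omt (7.3%, 3.69% higher and 3.62% lower). The 95% interval lay within ±0.5 for 74.1% of genes against N-Nme, 70.1% against N-Mac and 51.5% against N-Omt. The count for N-Tri against N-Nme depended on single libraries, and was 4100 without N-Nme replicate 3 and 796 without N-Tri replicate 3. N-Nme replicate 3 had a mean correlation of 0.9932 with the N-Tri libraries and 0.9938 with its own group.

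**Figure D4:**
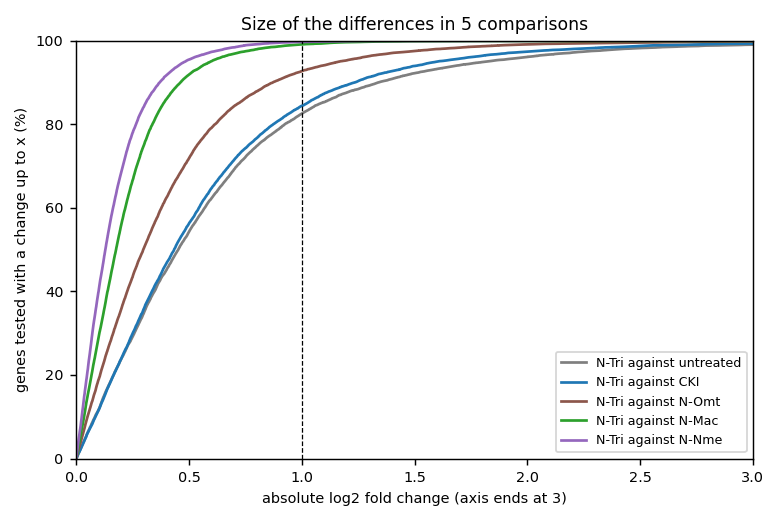
Share of the genes tested (%) whose absolute log2 fold change is at most the value on the x axis, which ends at 3, for N-Tri against each of 5 groups. The dashed line marks 2-fold. The curves against N-Nme and N-Mac rise fastest, that against N-Omt lies between, and those against CKI and untreated cells rise slowest, with median absolute log2 fold changes of 0.129, 0.176, 0.297, 0.434 and 0.452 in this order.

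Levels of the leading genes in the mixtures showed how far N-Tri stood from them. List counts against N-Nme, here and in the next paragraph, were not recounted without single libraries, on which the number of DE genes depended. CXCL8 had a mean of 2309 CPM with N-Mac, 1277 with N-Tri, 843 with N-Nme and 708 with N-Omt, and the log2 fold changes of N-Tri were -0.83, 0.60 and 0.85 against N-Mac, N-Nme and N-Omt, each DE. The cytokine list was lower than with N-Mac in 16 of 19 genes (20.5% of all genes were lower). It was higher than with N-Nme in 14 of 18 (8.04% of all genes were higher). Against N-Omt this list was higher in 7 and lower in 7 of 18, near the 33.9% higher and 32.2% lower of all genes. IL1B was highest with N-Omt (231 to 243 CPM), next N-Mac (150.3 to 165), N-Tri (67.1 to 77.5) and N-Nme (31.5 to 41.6), with no overlap between these neighbours. Mitosis genes were DE higher with N-Tri than with N-Omt in 32 of 34 (33.9% of all genes were higher, median 1.39) and lower than with N-Nme in 29 of 34 (9.65% of all genes were lower, median -0.41). Against N-Mac 3 of 34 were higher and 7 lower, where 21.9% of all genes were higher and 20.5% lower. CYP1A1 had means of 11.9 CPM with N-Omt, 10.0 with N-Mac, 5.55 with N-Tri and 3.85 with N-Nme, and N-Tri differed from each of the 3 mixtures (log2 fold changes -1.11, -0.85 and 0.51, adjusted p = 2.40e-13, 1.15e-06 and 0.0253). All 4 mixtures were below CKI for this gene.

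HSPA5 had a mean of 8291 CPM with N-Nme, 6436 with N-Tri, 5965 with N-Mac and 3289 with N-Omt. Chaperones of the endoplasmic reticulum were higher with N-Tri than with N-Omt in 20 of 21 genes (median 0.54, beside 33.9% of all genes higher) and lower than with N-Nme in 14 of 21 (median -0.26, beside 9.65% of all genes lower). PTGS2 did not differ beyond the spread from N-Mac (log2 fold change -0.09, 95% interval -0.19 to 0.01) or N-Nme (0.06, -0.07 to 0.18), and was above N-Omt by 1.80. MMP1 had 0.07 against N-Mac (95% interval -0.02 to 0.16) and 1.95 against N-Omt.

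COL1A2, a chain of type I collagen, was the 1 gene at least 2-fold different in the same direction from CKI and from all 3 mixtures. It was at 0.999, 0.996 and 1.02 CPM with N-Tri, from counts of 18, 25 and 22, and at 16.9, 22.3 and 13.8 CPM in untreated and 7.31, 7.21 and 6.54 CPM in CKI libraries. The N-Nme libraries were at 3.63, 4.15 and 0.675 CPM and the N-Omt libraries at 3.91, 3.51 and 1.16 CPM, so that replicate 3 of N-Nme was below and replicate 3 of N-Omt close to the N-Tri libraries. MMP2 had the same 2 libraries apart from their groups, at 1.91, 1.95 and 0.0397 CPM with N-Nme and 1.91, 2.25 and 0.105 CPM with N-Omt, where N-Tri had 0.111, 0.279 and 0.372 and N-Mac 2.32, 1.98 and 1.70 CPM. For neither gene did the N-Tri libraries stand apart from all libraries of N-Nme and N-Omt, and the cause was not tested. With no size required, 142 genes were DE higher and 186 lower against CKI and each of the 3 mixtures. Each of these comparisons used the same 3 N-Tri libraries, so their calls are not independent. The single comparisons had 38.4% of genes tested higher against CKI, 21.9% against N-Mac, 8.04% against N-Nme and 33.9% against N-Omt. The shares lower were 38.6%, 20.5%, 9.65% and 32.2% in this order. The fewest genes were tested against N-Nme (14249), where the number DE depended on single libraries. Examples chosen after their values were seen are DUSP8, a phosphatase of stress kinases, at 26.9 CPM with N-Tri and 18.3 to 20.4 CPM in the other mixtures, NOG, the BMP antagonist noggin, at 101 and 57.3 to 70.2 CPM but 85.0, 66.3 and 99.4 CPM in untreated libraries, and APOL1, an apolipoprotein, at 5.80 and 8.16 to 9.98 CPM.

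**Figure D5:**
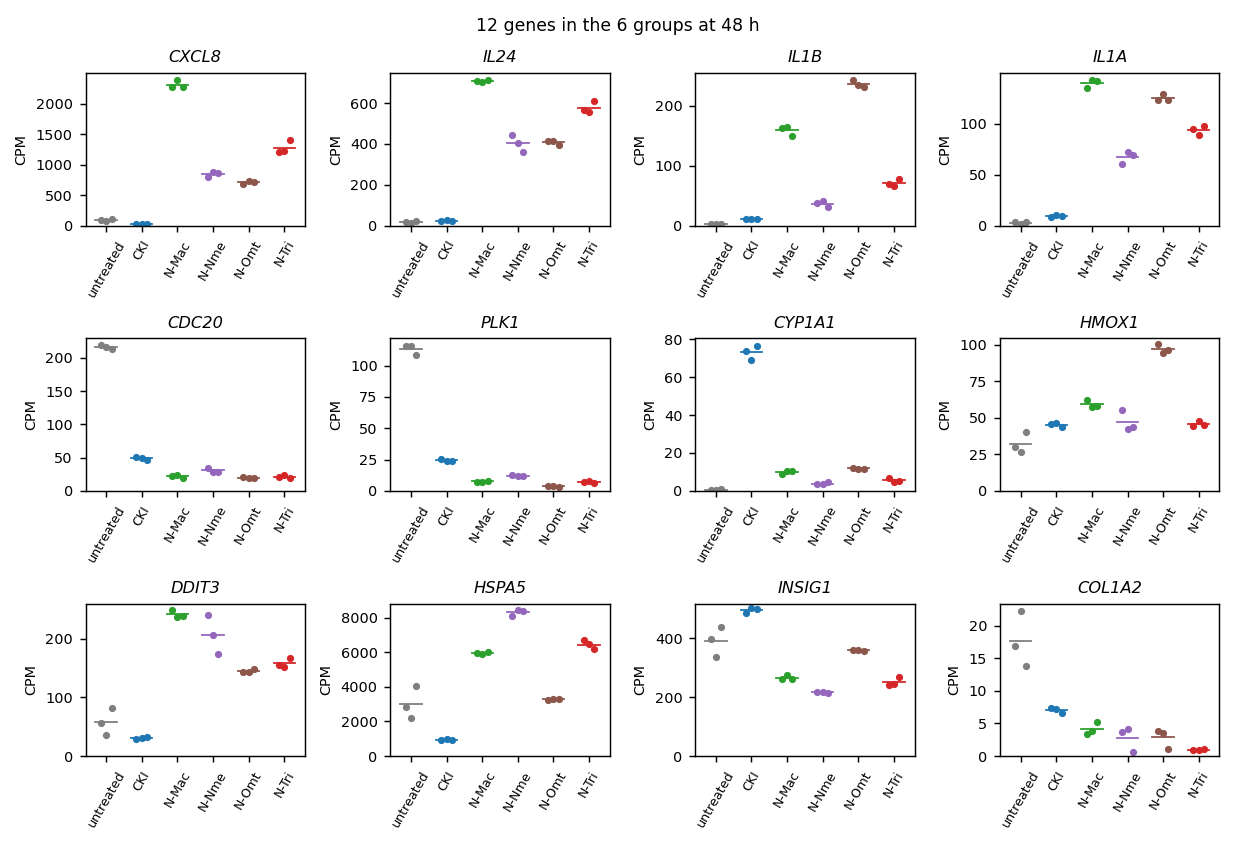
CPM (linear axis from 0) of 12 genes in the 6 groups at 48 h in batch 2, with 1 point per library and a line at the mean of 3. The chemokine and interleukin genes are low in untreated and CKI-treated cells and high in all 4 mixtures, PLK1 and CDC20 are highest in untreated cells, CYP1A1 is highest with CKI (68.7 to 76.6 CPM), and COL1A2 shows the single low libraries of N-Nme and N-Omt.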

How the data were processed

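RNA-seq libraries (strand-specific, oligo(dT) selected, paired-end) were deposited by the authors as raw counts of reads per gene, with no normalization, for 27978 genes in 54 libraries. The submitters' processing notes name FastQC 0.11.4, Trim Galore 0.3.7, STAR 2.5.3a, Subread 1.5.2 with featureCounts, edgeR 3.22.3 and hg19. Here the counts of 3 N-Tri and 3 untreated libraries were compared with edgeR 4.0.16 in R 4.3.3 (filterByExpr, TMM scaling, quasi-likelihood test, Benjamini-Hochberg adjustment over all genes tested), and N-Tri likewise with CKI and with each of 3 other mixtures. Genes were DE at an adjusted p-value under 0.05. Printed CPM were scaled by TMM over the 18 libraries of batch 2. Alternatives were RLE factors, library sizes alone, DESeq2 1.42.0, other filters, 1 fit over 18 libraries, a replicate block and leaving out each library. Named genes are the 12 largest rises and falls against untreated cells and the 8 against CKI (mean of at least 10 CPM over the libraries compared, DE, no overlap), the 4 largest changes per list, the largest of the list members at least 2-fold different from CKI, and genes 2-fold different from all mixtures. Members and lists were chosen with earlier results of these data known, and genes outside the rule were named to complete a list. The 20 lists were described by counts and medians and not tested as sets. Promoters are RefSeq sequences of GRCh38.p14, and GC content is that of GENCODE transcripts, matched by symbol. P-values weigh a difference against the spread between the libraries of a group. That spread was estimated with information shared across genes, so very small p-values do not rest on the 3 libraries of a single gene alone. The test was run on counts simulated for the N-Tri and untreated libraries, with the same dispersion for all genes and few genes changed. That simulation does not check the scaling or the error rates in the real data. Some list members are counted but not reported here by name.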

Additional observations from a re-analysis of the deposited data

How the results depend on the processing

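Against untreated cells and against CKI, the numbers of DE genes, with and without the 2-fold rule, stayed within 1.5 times of those given under all 13 alternatives, as did the number of DE members in each of the 20 lists against untreated cells. The counts against 2 of the mixtures did not. Against N-Mac the 126 genes at 2-fold were 79 by DESeq2, 199 with no filter beyond 1 count and 64 at a mean of at least 1 CPM. Against N-Nme the 31 genes at 2-fold were 10, 51 and 12 under these settings and 59 with 1 fit over 18 libraries. Leaving out each library in turn gave 796 (without N-Tri replicate 3) to 4100 (without N-Nme replicate 3) DE genes for N-Tri against N-Nme, and 16 to 62 at 2-fold for the same libraries. The value for CRELD2, log2 fold change against CKI, was near 0 and not DE, and turned to -0.0110 with library sizes alone and -0.0145 with 1 fit over 18 libraries, and ranged from -0.0796 to 0.0706 without single libraries. OAS3 against CKI was no longer DE without CKI replicate 1, ITGB8 without CKI replicate 3 or N-Tri replicate 2, and NOG against untreated cells by DESeq2 or without N-Tri replicate 1 or 3. The cause was not tested in any of these cases.

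The replicate numbers did not pair the libraries, since deviations from the group means had correlations between -0.0388 and 0.0402 for same-numbered libraries. With a replicate block 10690 genes were DE in N-Tri against untreated cells, 11019 in N-Tri against CKI, 5837 in N-Tri against N-Mac, 3035 in N-Tri against N-Nme and 9431 in N-Tri against N-Omt, each within 1.5 times of the count without it. With 3 libraries per group and 18.0 to 25.1 counts at 1 CPM, genes near or under 1 CPM, such as CCL20, MMP2 and E2F2, rest on few reads.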

Other observations

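The genes given here were chosen after their values were seen. Noncoding transcripts that host small nucleolar RNAs were higher with N-Tri than with CKI in all 9 that were looked up (ZFAS1, GAS5, SNHG1, SNHG3, SNHG5, SNHG8, SNHG12, SNHG15 and SNHG16), where 38.4% of all genes were higher. GAS5, a host transcript known to accumulate in growth-arrested cells, was at 105, 89.3 and 139 CPM in untreated, 38.9, 39.9 and 39.1 CPM in CKI and 329, 295 and 301 CPM in N-Tri libraries, with no overlap between the groups. Its log2 fold change was 1.50 ± 0.12 against untreated cells (SE, n = 3 per group, adjusted p = 1.15e-07) and 2.99 ± 0.04 against CKI (adjusted p = 7.87e-46). ZFAS1 had 1.31 and 3.36. SNHG3 (0.07), SNHG15 (-0.14) and SNHG16 (0.09) were not DE against untreated cells, though SNHG3 and SNHG16 were with library sizes alone.

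LGALS12, a galectin, had counts of 453, 655 and 272 in the untreated, 148, 183 and 169 in the CKI and 3, 2 and 0 in the N-Tri replicates, and means of at most 0.166 CPM in the other mixtures. Among immediate early genes, EGR1 was at 109, 112 and 231 CPM and FOS at 26.8, 26.2 and 59.3 CPM in the N-Tri replicates, so that replicate 3 was far above the other 2 in both. EGR1 was DE against untreated cells (log2 fold change 2.26) and FOS was not (0.57, adjusted p = 0.0635), but FOS was DE under 7 of the 13 alternatives and had an adjusted p of 0.658 without N-Tri replicate 3. DUSP1, a phosphatase of MAP kinases, was at 193, 195 and 221 CPM with N-Tri and 41.5, 36.9 and 57.8 CPM without. MKI67, the proliferation marker Ki-67, fell from 341, 350.4 and 302 CPM to 39.8, 41.2 and 36.9 CPM, and S100A4, a calcium-binding protein linked to metastasis, from 894, 1081 and 738 CPM to 169, 163 and 166 CPM.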
